A study of Homo sapiens with 24 samples.

Results

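PANC-1 is an established cell line from a human pancreatic ductal carcinoma. Of 19820 protein-coding genes, 191 carried an H3K4me3 peak at their transcription start sites (TSSs) in every H3K4me3 list but no H3K27ac peak and no H3K27me3 peak in any list. They are called H3K4me3-only promoters here, and they were 1.39% of the 13745 genes with H3K4me3 in all 6 lists. A gene was counted when a window of 1 kb on each side of an annotated TSS of a protein-coding transcript overlapped a peak by at least 1 bp, with all TSSs of a gene pooled. They were selected on the presence and absence of peaks in all 18 lists, so their state is a selection and not a finding. Peak width, rank and fold enrichment, the neighbouring chromatin, the promoter sequence and the position in the genome were not used by the rule.

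Histone marks were profiled by ChIP-seq, the sequencing of DNA pulled down with an antibody to the mark, in 3 groups with 2 libraries per mark in each. The siControl cells received a control siRNA and no TGFb. The siControl+TGFb cells received the control siRNA and, from the next day, TGFb at 10 ng/ml for 48 h, which induces an epithelial-to-mesenchymal transition. The siPHF13+TGFb cells received siRNA against PHF13, a reader of methylated H3K4, with the same TGFb treatment. All groups are the same line after siRNA transfection, a siPHF13 group without TGFb was not analysed here, and the labels do not say that the 2 libraries of a group came from separate cultures, so p-values measure the spread between these libraries only.

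H3K4me3 is laid down at promoters, above all at those rich in CpG dinucleotides. At most active promoters it is accompanied by H3K27ac, written by the acetyltransferases p300 and CBP. At poised, or bivalent, promoters it is found together with H3K27me3, the mark of Polycomb repressive complex 2. A promoter with H3K4me3 and neither H3K27 mark belongs to neither textbook state, and marks other than these were not analysed here. The H3K4me3-only promoters were therefore set beside 3623 acetylated promoters, with H3K4me3 and H3K27ac in all 6 lists and H3K27me3 in none, and 1281 bivalent promoters, with H3K4me3 and H3K27me3 in all 6 lists and H3K27ac in none. The acetylated class is a strict one, since the H3K27ac list of siPHF13+TGFb replicate 1 held only 6004 peaks. A further 4857 genes with H3K27ac in 5 lists and no H3K27me3 lie outside it.

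The lists differed in length, which limits how many promoters can have a peak in each list. An H3K4me3 list held between 27869 and 39202 peaks, an H3K27ac list between 6004 and 36104 and an H3K27me3 list between 59573 and 165717. Replicate 1 of siPHF13+TGFb was the shortest for every mark. Read depth is unknown from peak lists. The peak names inside the siPHF13+TGFb lists carry NCT, which elsewhere abbreviates siControl+TGFb, while those inside the siControl+TGFb lists carry another tag, so every direction stated between these groups holds only if the sample labels are right. Of the epithelial and ductal genes, KRT8, KRT18, KRT19, SOX9 and CLDN4 had H3K4me3 in all 6 lists and H3K27ac in 4 to 6. The 10 matched genes of leukocytes, hepatocytes, endocrine, endothelial and acinar cells had neither mark in any list. PHF13 itself carried H3K4me3 in 6 lists and H3K27ac in 5, which says nothing of its depletion.

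Promoter sequence is shown for 4 of these genes that differ in CpG content, without spanning the whole range of the group. Each run is the 200 bases before the TSS of the canonical transcript on hg19 (GRCh37), 5′ to 3′ on the gene's strand, free of annotated exons, with each CpG in capitals. LFNG encodes the Fringe glycosyltransferase that modifies Notch receptors and has among the widest H3K4me3 of the group (chr7:2559208-2559407, plus strand). ZNF541 is a C2H2 zinc finger gene of the germline (chr19:48076406-48076605, minus strand). GCDH encodes the mitochondrial glutaryl-CoA dehydrogenase of lysine breakdown (chr19:13001774-13001973, plus strand). CFAP299 belongs to the cilia and flagella associated family (chr4:81256684-81256883, plus strand).
LFNG: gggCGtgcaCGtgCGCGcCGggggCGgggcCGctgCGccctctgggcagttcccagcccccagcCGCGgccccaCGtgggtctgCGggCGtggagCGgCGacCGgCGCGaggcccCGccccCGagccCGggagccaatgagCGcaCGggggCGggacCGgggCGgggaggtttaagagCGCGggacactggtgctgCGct
ZNF541: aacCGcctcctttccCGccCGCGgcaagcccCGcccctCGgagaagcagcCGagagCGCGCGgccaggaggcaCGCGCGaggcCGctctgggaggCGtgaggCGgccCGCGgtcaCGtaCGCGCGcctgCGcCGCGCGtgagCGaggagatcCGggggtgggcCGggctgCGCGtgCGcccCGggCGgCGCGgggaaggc
GCDH: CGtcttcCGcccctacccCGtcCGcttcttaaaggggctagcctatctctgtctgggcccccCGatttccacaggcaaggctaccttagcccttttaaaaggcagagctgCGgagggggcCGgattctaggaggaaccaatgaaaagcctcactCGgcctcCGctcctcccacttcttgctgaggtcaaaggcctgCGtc
CFAP299: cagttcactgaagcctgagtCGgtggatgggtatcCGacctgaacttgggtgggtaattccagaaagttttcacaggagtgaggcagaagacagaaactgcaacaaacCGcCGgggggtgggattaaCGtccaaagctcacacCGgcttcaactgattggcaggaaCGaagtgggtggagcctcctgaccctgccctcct
The LFNG stretch holds 29 CpGs at a GC content of 80% and the ZNF541 stretch 36 at the same GC content. The GCDH stretch holds 10 and the CFAP299 stretch 7, at GC contents of 59.5% and 55%. The matching stretches of ASB5 and PLA2G4A, not shown, hold 2 each at 35.5% and 37%, and that of DIRAS1 38 at 89.5%. At ASB5 the canonical TSS lay in a peak in 0 lists and another annotated TSS in 6, so this stretch is not where its H3K4me3 lay.

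To determine how strong the H3K4me3 was at these promoters, peaks were merged across the 6 lists into 44697 regions, of which 21457 had a peak in every list. The H3K4me3-only promoters lay in 185 distinct merged regions, 184 of them with a peak in all 6 lists. Width is the number of bp covered by peaks within the region in a library. Rank is the percentile of the strongest peak of the region within its own list, by the −log10 q-value of the authors' peak caller, with 100 for the strongest peak.

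The H3K4me3 at the H3K4me3-only promoters was narrow, and in bulk chromatin a mark in fewer cells and less of it in every cell cannot be told apart. Median widths in the siControl libraries were 926.5 and 1153.5 bp, those in the siControl+TGFb libraries 1229.5 and 1197.5 bp, and those in the siPHF13+TGFb libraries 817.5 and 1126 bp. Acetylated promoters had median widths of 1735 to 2123 bp over the same libraries, and the medians of the 2 classes did not overlap. The difference of the medians was −0.89 ± 0.15 on the log2 scale (SD, n = 6 libraries), a ratio of 0.54, and was below 0 in 6 of 6 libraries (exact two-sided sign-flip permutation test over libraries, p = 0.031, the smallest that 6 libraries allow). Bivalent promoters, at 912 to 1419 bp, were nearer, but the H3K4me3-only promoters were narrower than these within each of the 6 libraries too, by −0.19 ± 0.05 on the log2 scale, a ratio of 0.88 (same exact test, p = 0.031).

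The same order held for the rank of the peaks. The median rank percentile of the H3K4me3-only promoters was 40.4 to 59.7 over the 6 libraries, against 80.7 to 83.6 for acetylated promoters. The difference was −30.9 ± 5.9 percentile points (SD, n = 6 libraries, exact sign-flip permutation test, p = 0.031). Against bivalent promoters it was −2.86 ± 1.44 points, below 0 in 6 of 6 libraries (same exact test, p = 0.031). This small difference was −2.26 points and below 0 in 5 of 6 libraries when only the 5′ end of each gene served as its TSS (exact permutation p = 0.0625).

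Fold enrichment over input, the authors' value for the peak, went the other way. It was 6.02 to 8.26 in the median of the H3K4me3-only promoters and 5.41 to 6.16 at acetylated promoters, higher by 1.46 ± 0.89 and in 6 of 6 libraries (SD, exact sign-flip permutation test chosen after the values were seen, p = 0.031). In siPHF13+TGFb replicate 1 this gap was only 0.13. Against bivalent promoters, fold enrichment differed by −0.08 ± 0.17 (exact permutation p = 0.375). The H3K4me3-only promoters thus had narrow peaks of middle rank whose enrichment over input was not lower than that of acetylated promoters.

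**Figure D1:**
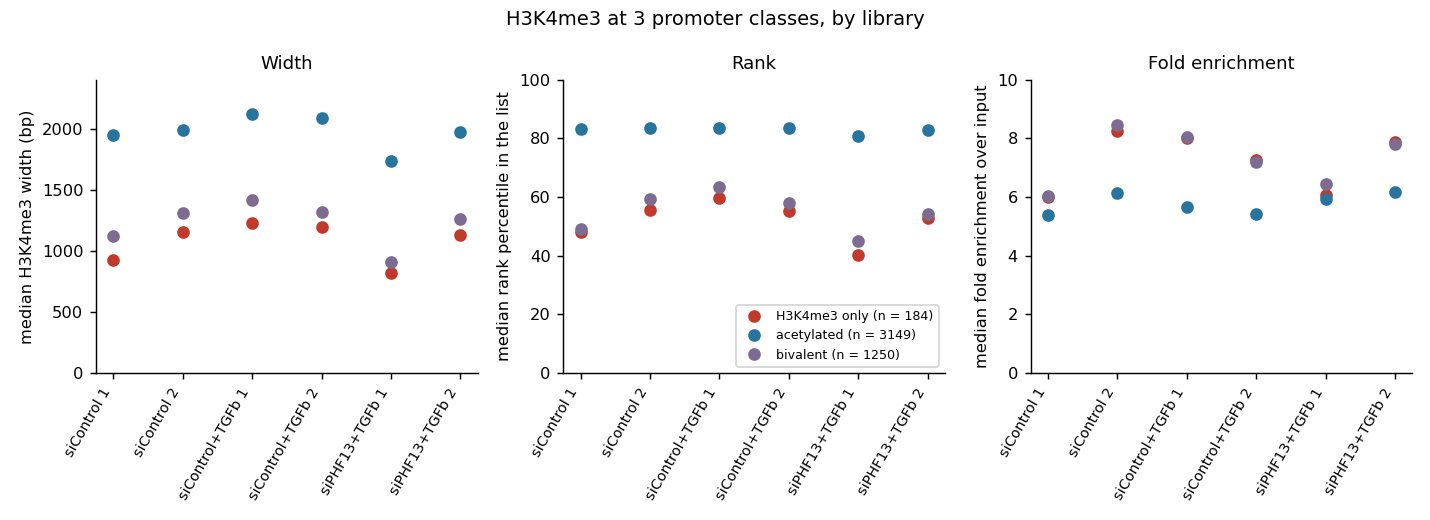
Median H3K4me3 width in bp, median rank percentile and median fold enrichment over input (y axes) in each of the 6 libraries (x axis) for H3K4me3-only, acetylated and bivalent promoters, each point a median over the regions of the class. In width and rank the H3K4me3-only promoters lie lowest in every library, at 817.5 to 1229.5 bp and percentiles of 40.4 to 59.7, and in fold enrichment they lie with the bivalent promoters.

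H3K4me3 width and rank also increased stepwise with the number of H3K27ac lists in which a promoter without H3K27me3 had a peak. Fold enrichment was not examined by step. From 191 genes with H3K27ac in 0 lists to 96 genes with it in 1 list, the mean over libraries of the median width went from 1075 to 1223 bp. It was 1392 bp for 2 lists, 1535 bp for 3, 1631 bp for 4, 1825 bp for 5 and 1976 bp for 6. Mean rank percentiles went from 52.0 for 0 lists and 61.8 for 1 list to 79.3 for 5 and 82.9 for 6. The H3K4me3-only promoters were thus the lower end of a graded series in width and rank, and the ranges of neighbouring steps over libraries overlapped.

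**Figure D2:**
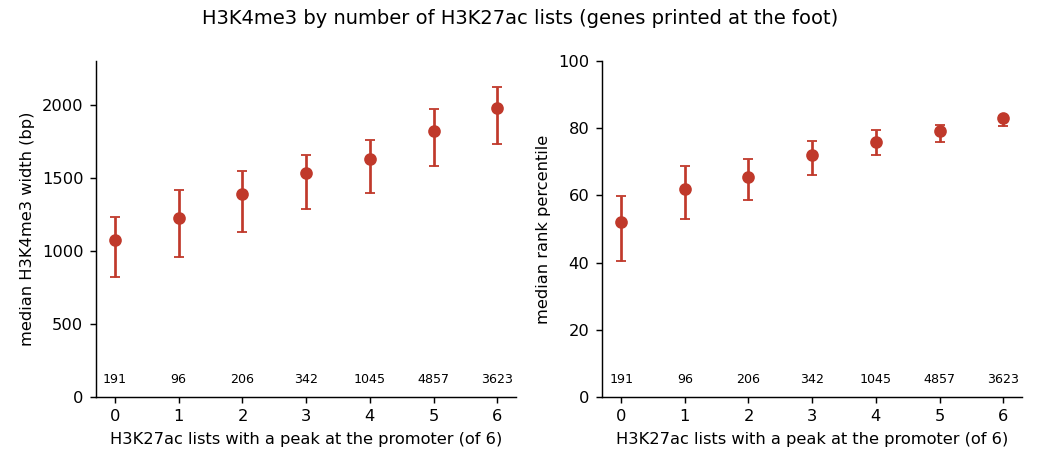
Median H3K4me3 width in bp (left) and median rank percentile (right) of promoters with H3K4me3 in 6 lists and no H3K27me3, by the number of H3K27ac lists with a peak at the promoter (x axis). Points are means over 6 libraries, bars run from the lowest to the highest library, and the number of genes stands at the foot; the width rises from 1075 bp at 0 lists to 1976 bp at 6.

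The threshold of the selection turned on few libraries. Of the 96 genes that had H3K27ac in exactly 1 list, 63 had it in siControl+TGFb replicate 1, which is the longest H3K27ac list, and 24 in siPHF13+TGFb replicate 2. The 3 genes with the least overlap were ENSG00000285938, PLXNB3 and AK4P3, with 35, 48 and 105 bp of H3K27ac in their windows in siControl+TGFb replicate 1. Another 72 genes were kept out by H3K27me3 in exactly 1 list, 34 of them by siControl replicate 2, the longest of that mark. A further 31 had H3K4me3 in 5 lists, and 23 of these lacked it in siPHF13+TGFb replicate 1. Just inside, the members with close H3K27ac included ZNF593OS and ASB5, whose nearest acetylated peak lay 1005 and 1174 bp from a TSS.

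H3K27ac outside the windows was near for some promoters and far for others. In the nearest of the 6 lists it lay a median of 16.5 kb away, with 28.8% of the promoters within 5 kb. For the 2558 genes with no peak of any mark at their windows the median was 40.3 kb, and 14.5% were within 5 kb. H3K27me3 lay at a median of 16.7 kb, with 30.4% within 5 kb, against 18.7 kb and 26.2% for the unmarked genes. Neither mark lay within 5 kb in any list at 85 of the 191 promoters, and at PLA2G4A, the cytosolic phospholipase A2 that releases arachidonic acid, the nearest acetylated peak was 452367 bp away.

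The H3K4me3 region itself held no H3K27ac at 184 of the 191 genes and no H3K27me3 at 184, and neither mark at 177. The 7 whose region ran into H3K27ac beyond the windows included ADHFE1, FBXO32, GCAT, ID4, RNF151 and ZNF593OS. For ADHFE1, GCAT and ZNF593OS this was so in 5 or 6 lists, so their H3K4me3 was not free of acetylation along its length. The 7 with H3K27me3 in the region were ADRA2C, CERS1, GAS1, GCH1, GDF1, GP1BB and SLITRK1, in 1 or 2 lists each. Without the regions holding H3K27ac the width difference from acetylated promoters was −0.92 on the log2 scale (exact permutation p = 0.031).

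The H3K4me3 did not always cover a start site. An annotated TSS lay inside a peak in all 6 lists at 117 of the 191 genes (61.3%), in 1 to 5 lists at 55, and in no list at 19. The share covered in all 6 lists was 80.5% for acetylated and 71.7% for bivalent promoters. Any annotated TSS of a gene counted, and the median number of TSSs was 2 for H3K4me3-only, 4 for acetylated and 3 for bivalent genes. TEX15, EPOR, ID4 and PPARGC1A were among the 19 whose H3K4me3 lay beside the annotated start.

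The widest H3K4me3 regions included those of ADHFE1, LFNG, FBXO32, AHNAK2, N4BP2L1, GCAT and GAS1. LFNG, whose CpG-dense upstream sequence is printed above, was covered over 2094 and 2626 bp in siControl libraries, then 2617 and 2283 bp in siControl+TGFb, and 1970 and 2535 bp in siPHF13+TGFb. The 3 groups overlapped. FBXO32, the muscle ubiquitin ligase atrogin-1, had 2407 and 2260 bp, 2301 and 2042 bp, and 1840 and 2352 bp in the same order, again with overlapping groups. GAS1, a membrane protein that binds Hedgehog ligands, had 1307 and 2120 bp, then 2360 and 2298 bp, then 789 and 2397 bp, so the siPHF13+TGFb libraries were the lowest and the highest of the 6. AHNAK2, a large scaffold protein, had 1566 to 2473 bp, with its lowest value in siPHF13+TGFb replicate 1.

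The highest mean ranks were those of ZNF593OS (96.9), C2CD2L (86.7), THEMIS2 (85.0), CORO6 (84.6), GCDH (84.3), LIN37 (83.2), GNMT (80.6) and FAM131C (80.0). At GCDH, whose upstream sequence is among those printed, 1592 and 1622 bp were covered in siControl and then 1681 and 1467 bp in siControl+TGFb, and 1101 and 1370 bp in siPHF13+TGFb. The siPHF13+TGFb values lay below all others. LIN37, a subunit of the DREAM complex, which represses cell cycle genes, had 843 and 792 bp in siControl, then 890 and 815 bp in siControl+TGFb, and 890 and 885 bp in siPHF13+TGFb. Values in siControl+TGFb overlapped with those of both other groups, while both siPHF13+TGFb values lay above both siControl values. Its mean rank percentile of 83.2 lay within the range of the acetylated medians, 80.7 to 83.6, at less than their width. Mean widths over all 191 ran from 173 bp to 3375 bp with a median of 1057 bp, and mean ranks from 19.0 to 96.9 with a median of 51.3. The lowest width was that of FAM89B, whose leading region was not in all 6 lists. The highest was that of ADHFE1, whose region held H3K27ac beyond the windows in 5 lists.

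By function, 105 of the 191 could be put in 8 groups, formed after the membership was known and given as a description only. The 22 ligands, receptors and secreted modulators had a median width of 1024 bp. They included EDNRB, the endothelin receptor B, with 601 to 1191 bp, SFRP1, a secreted Wnt antagonist, with 830 to 2207 bp, and TNFRSF11A, the receptor RANK, with 1105 to 2192 bp. The 27 metabolic enzymes had a median of 972.5 bp, with ARG2, the mitochondrial arginase, at a mean of 1486 bp. They ran from LDHC, the testis form of lactate dehydrogenase, at 447 bp to ADHFE1, an iron-containing alcohol dehydrogenase, at 3375 bp. The ADHFE1 region held H3K27ac beyond the windows in 5 lists. Of the 27, the 16 with a TSS covered in all 6 lists included GNMT, the glycine N-methyltransferase that uses S-adenosylmethionine.

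The 12 transcription factors and cofactors had a median width of 1018 bp. PDX1, the homeobox factor of pancreas development and of islet beta cells, had 1369 and 1593 bp in siControl libraries, then 1657 and 1616 bp in siControl+TGFb, and 1175 and 1889 bp in siPHF13+TGFb. BHLHA15, the acinar factor MIST1, had 722 to 803 bp. Neither had H3K27ac or H3K27me3 in a list, though acetylated chromatin lay 1348 bp from a TSS of PDX1.

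The 13 axonemal and sperm genes had a median width of 1017 bp and the 7 protocadherins one of 737 bp. Of 95 axonemal and motile cilium genes with H3K4me3 in all 6 lists, 10 (10.5%) were H3K4me3-only, beside 1.39% of all such genes. Of 17 clustered protocadherin genes, 6 (35.3%) were H3K4me3-only. Both lists were drawn up after the members had been seen, so these shares carry no test, and the clustered protocadherins are paralogues of similar sequence, for which the placing of reads among copies was not measured. Each of the 6 is in the alpha or beta cluster on 5q, and the CpG-rich definition given below was met by 0 of the 7 protocadherins in the group but by 10 of the 13 axonemal and sperm genes. CFAP299 had 1517 and 1409 bp in siControl libraries, then 1447 and 1483 bp in siControl+TGFb, and 1170 and 1348 bp in siPHF13+TGFb.

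The 9 transporters and channels had a median of 948.5 bp, and ABCA1, the cholesterol exporter, had 1368 to 1878 bp. The 11 muscle and cytoskeletal genes had a median of 1214 bp and included DMD, dystrophin, with 640 to 1127 bp, and TNNI3, cardiac troponin I, with 941 to 1351 bp. The DMD region lay at another of its 25 annotated TSSs, and its canonical TSS lay in a peak in 0 lists. The 5 apoptosis and repair genes, which share TNFSF10 with the ligands, had a median of 1308 bp. In that group BBC3, the BH3-only protein PUMA, had 1266 to 1770 bp and POLB, DNA polymerase beta, 1349 to 1575 bp.

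Gene families of known promoter types were counted as well. None of the 56 TGFb and EMT genes and none of the 23 AP-1 genes with H3K4me3 in all 6 lists was H3K4me3-only. The count was also 0 for 78 mitochondrial ribosomal protein genes, 105 respiratory chain and ATP synthase genes, 82 cytoplasmic ribosomal protein genes, 70 cell cycle genes, 57 genes of the H3K4 and Polycomb machinery, 54 clustered histone genes and 48 DNA repair genes. It was 0 as well for aminoacyl-tRNA synthetase (34), RNA polymerase (33), proteasome (37), intraflagellar transport and Bardet-Biedl (45), peroxin (16), olfactory receptor (2) and HOX (20) genes. Of 482 C2H2 zinc finger genes, 2 were H3K4me3-only, ZNF311 and ZNF541 (0.415%). Of 217 solute carrier genes 2 were, SLC23A1 and SLC47A1 (0.922%), of 51 potassium channel genes 1 was, KCNH4, and of 20 germline and meiosis genes 1 was, TEX15. SLC47A1, the exporter MATE1, was covered over 1272 to 1610 bp and KCNH4 over 779 to 962 bp. These counts stand beside 1.39% of all genes with H3K4me3 in 6 lists and carry no test.

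The promoter sequences differed from those of acetylated promoters. In the 300 bases from 250 before to 50 after the canonical TSS on GRCh37, 121 of the 191 (63.4%) were CpG-rich, defined as a GC content of at least 50% and a CpG observed over expected ratio of at least 0.6. The share was 90.9% for acetylated, 81.3% for bivalent and 15.2% for unmarked promoters, and 65.3% for all coding promoters. The median CpG ratio was 0.72, against 0.89, 0.80 and 0.26. The lowest was that of CALCRL at 0.066, the receptor for calcitonin gene-related peptide and adrenomedullin, and the highest that of MAP7D2 at 1.42.

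A set of 10 short motifs were searched on both strands in the same 300 bases, and a match is a run of letters and not a shown binding site. No motif contains another, but matches may overlap. The ETS letters CCGGAAG were found in 6 H3K4me3-only promoters (3.14%), in 25.5% of acetylated, 3.43% of bivalent and 14.0% of all coding promoters. The 6 were FBXO25, FBXO32, LIN37, PF4V1, RAB11FIP1 and TOR1AIP2. The YY1 letters AAGATGGCG were in 1 (0.524%), MTMR8, against 5.80% of acetylated, 0.625% of bivalent and 2.83% of all promoters. The NRF1 letters GCGCATGCG were in 2 (1.05%), CFAP44 and MAP7D2, against 5.27%, 0.625% and 2.69% in the same order.

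The ZEB and Snail E-box CACCTG was in 21.5% of the H3K4me3-only promoters, above the 14.7% of acetylated and nearer the 25.1% of bivalent and 20.3% of all promoters. The GC box GGGCGG was in 68.1%, against 74.1% of acetylated, 61.2% of all and 24.7% of unmarked promoters. The TATA box TATAAA was in 7.33%, against 4.97%, 9.74% and 22.0% in the same order. The CCAAT box CCAAT was in 32.5%, against 36.5% of acetylated and 35.9% of all promoters, and the E-box CACGTG in 8.38%, against 11.4% and 8.73%. The CRE TGACGTCA was in 2.62%, against 3.89% and 2.71%, and the AP-1 letters TGANTCA in 3.14%, against 3.62% and 5.43%.

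Since the peak did not always lie at the canonical TSS, the counts were repeated, after the first values were seen, for the 94 H3K4me3-only promoters whose canonical TSS lay in a peak in all 6 lists. Of these 77.7% were CpG-rich, against 91.9% of 2124 acetylated and 91.6% of 737 bivalent promoters. The ETS letters were in 2 (2.13%), against 30.4% and 3.39%. The gap in CpG richness was thus smaller among start sites that lay in a peak, while the low share with the ETS letters remained and was shared with bivalent promoters.

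A coding gene starting on the opposite strand within 1 kb upstream, a divergent partner, was found at 5 of the 191 (2.62%), namely CCR10, CNTNAP1, LRRIQ1, MAN2B1 and TSPAN19. The share was 20.7% at acetylated, 1.09% at bivalent and 13.1% at all promoters with H3K4me3 in 6 lists. A pair of genes shares its windows, so acetylation at either can keep both out of the selection.

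**Figure D3:**
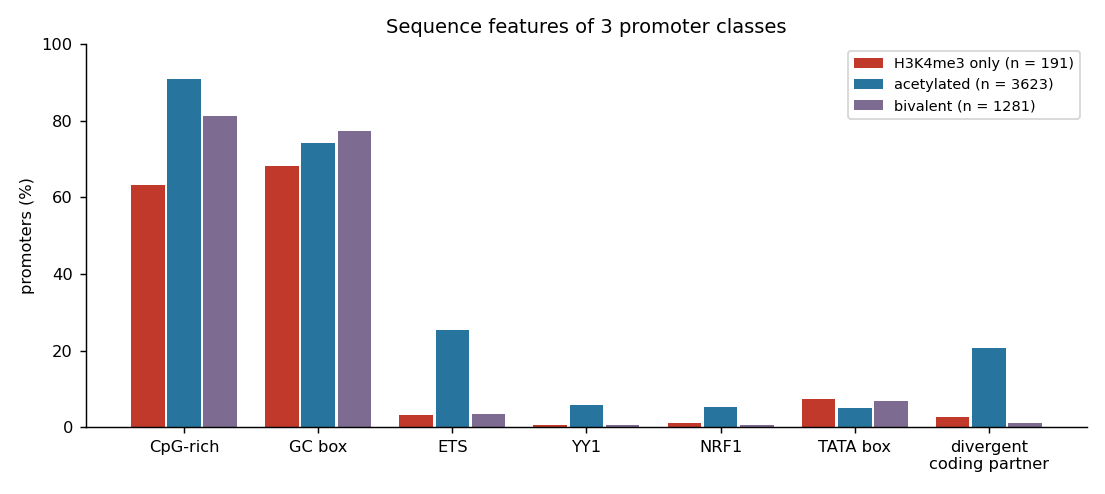
Share of promoters in percent (y axis) that were CpG-rich, held a motif or had a divergent coding partner (x axis), for H3K4me3-only, acetylated and bivalent promoters; bars have no error as each is a share of all promoters of its class. The ETS letters were in 3.14% of H3K4me3-only, 25.5% of acetylated and 3.43% of bivalent promoters, while the GC box was in over 68% of each.

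The H3K4me3-only promoters were unevenly spread over the chromosome arms. They made up 12 of 150 H3K4me3 promoters on 8p (8%), 15 of 192 on Xp (7.81%), 8 of 142 on 9p (5.63%) and 16 of 470 on 19p (3.40%). On 5p, 6q, 10q and 20q, with 104 to 415 such promoters each, there were 0. The 12 on 8p included DMTN, EPHX2, FBXO25, MTUS1, PDLIM2, POLB, RAB11FIP1, RNF122, SFRP1, TDRP and TEX15. On 8p, 9p and X together, arms picked after the counts were seen, the share was 4.82%, beside 1.19% on all other arms. The high share of X was on Xp, since on Xq it was 2 of 284 (0.704%).

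The other H3K4me3 promoters of 8p and Xp ranked low. Their median percentile was 47.0 on 8p and 56.5 on Xp, beside 76.9 over all arms other than 8p, 9p and X, and H3K27ac in 5 or 6 lists without H3K27me3 was found at 34% of the H3K4me3 promoters on 8p and 47.9% on Xp. On 9p the median was 79.5 and the share 58.5%, so the other promoters there did not rank low. Shares varied among other arms of lower rank. On 4p the median was 63.7, with 3.07% of the H3K4me3 promoters in the group. It was 64.4 with 2.89% on 13q and 63.3 with 2.75% on 4q. On 21q it was 66.6 with 0.775% and on 12p 69.0 with 0.645%, each from 1 member. The part of these arm-wide levels in the counts was not tested.

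**Figure D4:**
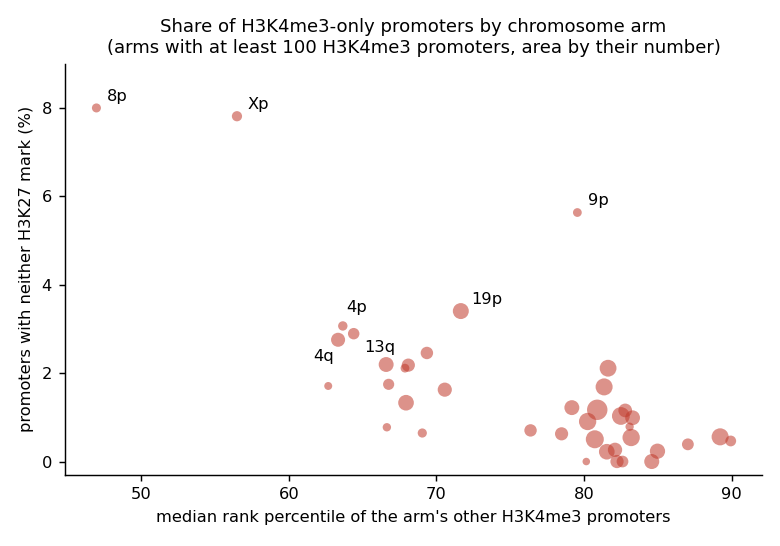
Percentage of H3K4me3 promoters that were H3K4me3-only (y axis) against the median rank percentile of the other H3K4me3 promoters of the same chromosome arm (x axis), with a point for each arm holding at least 100 such promoters and its area in proportion to their number. The arm 8p lies at 8% and a percentile of 47.0, Xp at 7.81% and 56.5, and 9p at 5.63% and 79.5.

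To examine the response to TGFb, siControl+TGFb was compared with siControl. The per-library medians given above were higher in siControl+TGFb at each of the 4 pairs of libraries, by 0.23 on the log2 scale (pooled SD 0.16, exact two-sided permutation test, p = 0.33, the smallest that 2 against 2 libraries allow). Over all 21457 regions the median rose by 0.14, so relative to this shift the H3K4me3-only promoters moved by 0.093. Their difference from acetylated promoters changed by 0.13 (pooled SD 0.14, exact permutation p = 0.667). Without siControl replicate 1, whose peaks were narrower than those of replicate 2, the difference was 0.073, and without replicate 2 it was 0.39.

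At single promoters limma, fitted on all regions with Benjamini-Hochberg adjustment, called 0 of the 184 by width, with a lowest adjusted p of 0.944, and 0 of 21457 regions in all (0.0%). At an unadjusted p under 0.05, 5 of the 184 were wider, where 2.53% of all regions were, and 0 were narrower, where 0.0326% were. By rank it also called 0, with 10 higher and 1 lower at an unadjusted p under 0.05 (4.66% and 0.685% of all regions). The width was higher in both siControl+TGFb libraries than in both siControl libraries at 69 of the 184 (37.5%), beside 43.9% of all regions, and lower at 5 (2.72%), beside 3.03%. With each width divided by the median of its library these counts were 37 and 23, beside 16.7% and 19.4% of all regions.

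The largest higher values with groups that did not overlap were at GSTM2, PLPP6, CALCRL, TNFSF10 and SPATA6L. CALCRL had 251 and 221 bp in siControl and 473 and 567 bp in siControl+TGFb, a log2 difference of 1.14 ± 0.18 (SE, limma adjusted p = 0.944). TNFSF10, the death ligand TRAIL, had 275 and 604 bp and then 772 and 791 bp. GSTM2, a glutathione transferase of the mu class, had 193 and 968 bp and then 1062 and 1047 bp, so that the difference of 1.29 ± 0.92 rests on siControl replicate 1. PLPP6, a lipid phosphatase, had 381 and 764 bp and then 1096 and 1409 bp, and its neighbour on 9p SPATA6L 289 and 741 bp and then 977 and 763 bp. The 5 lower ones were PLA2G4A, DIRAS1, RHOV, TMEM271 and BHLHA15, the largest of them PLA2G4A at −0.20 ± 0.38 (SE), from 972 and 1084 bp to 825 and 964 bp.

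To examine PHF13 depletion, siPHF13+TGFb was compared with siControl+TGFb, which serves in both comparisons. The median width was lower at each of the 4 pairs of libraries, by −0.34 on the log2 scale (pooled SD 0.23, exact permutation p = 0.33). All regions were lower by −0.26, acetylated promoters by −0.19 and bivalent promoters by −0.35, so relative to all regions the H3K4me3-only promoters moved by −0.077. The difference from acetylated promoters changed by −0.15 (pooled SD 0.14, exact permutation p = 0.33) and that from bivalent promoters by 0.015 (p = 1, same permutation test). Without siPHF13+TGFb replicate 1, the shortest list, the value was −0.11, and without replicate 2 it was −0.57.

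Again limma called 0 of the 184 by width, with a lowest adjusted p of 0.483, and 0 of all regions (0.0%). At an unadjusted p under 0.05, 11 were narrower, where 7.27% of all regions were, and 0 wider, where 0.0419% were. By rank it called 0, with 27 lower and 0 higher at that level (10.6% and 0.438% of all regions). The groups did not overlap and were lower at 90 of the 184 (48.9%), beside 56.2% of all regions, and were higher at 0, beside 0.778%. With widths divided by the library median the counts were 39 lower and 34 higher, beside 17.6% and 22.6% of all regions. Without siPHF13+TGFb replicate 2, and so with the short replicate 1 alone in its group and taken to vary like the others, 4 were called lower, beside 3.37% of all regions: MAGEE1, PPARGC1A, SCG2 and ZMYND10 (limma adjusted p of 0.0449 to 0.0497).

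The largest lower values with groups that did not overlap were at PPARGC1A, XAF1, SCG2, TNFSF10 and RAB11FIP1. PPARGC1A, the coactivator PGC-1 alpha of mitochondrial biogenesis, had 1816 and 1563 bp in siControl+TGFb and 218 and 1353 bp in siPHF13+TGFb, a log2 difference of −1.63 ± 0.89 (SE, limma adjusted p = 0.483). SCG2, a granin of secretory granules, had 1078 and 1097 bp and then 163 and 1003 bp, a difference of −1.43 ± 0.87. In both the value came largely from replicate 1 of siPHF13+TGFb, and replicate 2 lay less far below both siControl+TGFb libraries.

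Other promoters were also lower in both siPHF13+TGFb libraries. TNFSF10 had 772 and 791 bp in siControl+TGFb and 181 and 490 bp in siPHF13+TGFb, −1.39 ± 0.61 (SE, limma adjusted p = 0.483), and CALCRL 473 and 567 bp and then 235 and 187 bp, −1.30 ± 0.18 (SE, adjusted p = 0.483). CALCRL thus lay at 473 bp or more only in the 2 siControl+TGFb libraries. XAF1, an antagonist of the apoptosis inhibitor XIAP, had 1028 and 895 bp and then 223 and 539 bp, and RAB11FIP1, a Rab11 effector of recycling endosomes on 8p, 1407 and 1528 bp and then 372 and 945 bp. FAM89B was the member with higher values in siPHF13+TGFb, 163 and 323 bp against 0 bp in both siControl+TGFb libraries, but its windows hold other H3K4me3 and its leading region was not in all 6 lists.

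**Figure D5:**
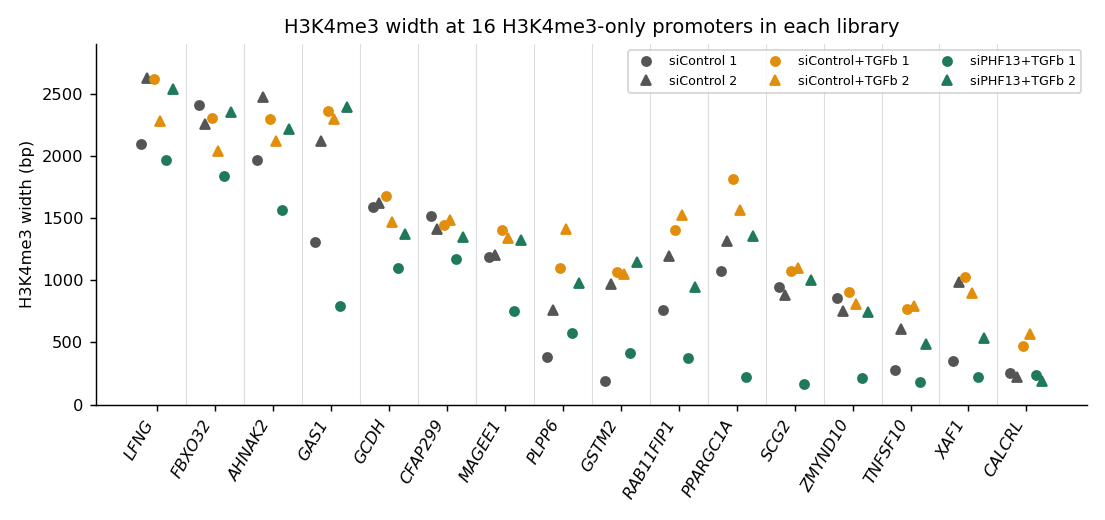
H3K4me3 width in bp (y axis) at 16 H3K4me3-only promoters, named along the x axis and picked after their values were seen, with a point for each of the 6 libraries (circles replicate 1, triangles replicate 2). Replicate 1 of siPHF13+TGFb is lowest at most of them, as at PPARGC1A with 218 bp and SCG2 with 163 bp, and CALCRL lies at 187 to 251 bp in siControl and siPHF13+TGFb and at 473 and 567 bp in siControl+TGFb.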

How the data were processed

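ChIP-seq peak lists of 18 PANC-1 libraries (H3K4me3, H3K27ac, H3K27me3) were analysed, leaving out the 6 inputs. Per the study's methods and the submitters' processing notes, the authors trimmed reads with Trim Galore 0.4.1, aligned them to hg19 with Bowtie2 2.4.1, removed duplicates with Picard and called peaks in each library with MACS2 2.2.7.1. Beside coordinates, the deposited lists give the authors' fold enrichment (ratio to input), score, −log10 p-value, −log10 q-value and, in narrow lists, the offset of the summit. The lowest −log10 q of the narrow lists was 1.30, which is below the threshold in the methods. List length and peak width follow depth and enrichment of a library as well as chromatin, and no intervals from counts could be given.

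TSSs came from GENCODE 44 lifted to GRCh37, and 0 lists passed a chromosome end. PECAM1 of the marker list was not matched. Overlaps were computed in Python 3.11.15 and checked against bedtools 2.31.1. Widths (log2) and ranks were fitted with limma 3.58.1 in R 4.3.3 in 1 fit of 3 groups, at an adjusted p of 0.05. The fit was tested on simulated data with large changes and equal spread in every library. That test does not show which changes could be detected in these libraries. Arms were split at the centromere gap of the assembly. Single values per library were compared by exact two-sided permutation tests. The members and lists were chosen with earlier results of these data known.

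Genes were named by rule: the 8 widest, the 8 of highest rank, the 5 largest and 5 smallest width changes per comparison whose groups did not overlap, up to 2 per gene list, and those nearest the threshold. Members named with the function groups, motifs, arms and divergent pairs were chosen after their values were seen. Some genes that met the rule are not reported here.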

Additional observations from a re-analysis of the deposited data

How the results depend on the processing

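Depth is unknown, so absence of a peak is absence from a list. The number of H3K4me3-only promoters was 191, and with windows of 500 bp or 2 kb, the 5′ end alone, basic TSSs or narrow peaks of −log10 q of at least 3 it was 149 to 258. It was 596 with the 50% strongest peaks of each list, which kept 51 of the 191, and 4281 with lists cut to equal length, where every H3K27ac list is cut to 6004 peaks. Leaving out each replicate in turn it was 203 to 268.

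The width differences kept their direction under every alternative run. With comparison promoters holding their H3K27 mark in at least 4 of 6 lists, they were −0.80 (log2) from acetylated and −0.17 from bivalent promoters. Without each replicate in turn they were −0.91 to −0.85 (log2) from acetylated and −0.20 to −0.17 from bivalent promoters, and the rank differences −32.4 to −29.1 and −3.21 to −2.49 points, with p = 0.0625, the smallest an exact sign-flip test of 5 libraries allows. The rank difference from bivalent promoters was −2.26 with the 5′ end as TSS and members chosen again. The width change ranged from 0.073 to 0.39 with TGFb and from −0.57 to −0.11 with PHF13 depletion without each replicate, and calls by width with PHF13 depletion from 0 to 4.

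Same-numbered replicates did not deviate together throughout: the correlation of their deviations from the group means was −0.26 for siControl and siControl+TGFb, 0.46 for siControl and siPHF13+TGFb and −0.22 for siControl+TGFb and siPHF13+TGFb, so the numbers were not taken as pairs. With the replicate block limma called 0 members in each comparison by width or rank, and 17 in place of 11 were narrower with PHF13 depletion, and 17 in place of 10 ranked higher with TGFb, at an unadjusted p under 0.05. With the siControl+TGFb numbers crossed, chosen after seeing the data, it called 0 as well. At an unadjusted p under 0.05, 34 of the 184 were then narrower with PHF13 depletion, beside 2735 of 21457 regions. With TGFb 17 were wider, beside 1153 of all regions.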
